A study of Mus musculus with 8 samples.

Results

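The LIV-1 subfamily of ZIP transporters comprises ZIP8 and its closest relatives among the proteins that carry zinc into the cytosol, and its 9 mouse genes were Slc39a4, Slc39a5, Slc39a6, Slc39a7, Slc39a8, Slc39a10, Slc39a12, Slc39a13 and Slc39a14. Membership was taken by symbol, from probe sets annotated with a single gene symbol, and all 9 were found among the 22180 genes measured, each with 1 probe set. The study infected primary articular chondrocytes, the cells of joint cartilage, with Ad-Zip8, an adenovirus that expresses the zinc transporter ZIP8, or with Ad-null, a control adenovirus. Each group had 4 arrays of total RNA, labelled as biological replicates and taken 24 h after infection. Every culture came from knee cartilage of wild-type ICR mice aged 5 days, grew as a monolayer in serum-supplemented medium and received a virus, so no uninfected cells enter the comparison. The labels do not state the promoter or species of the ZIP8 sequence in the virus, the dose of virus or the number of animals per culture. The p-values therefore measure the spread between these samples, which may be partly technical.

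ZIP proteins move zinc into the cytosol from outside the cell or from internal compartments, whereas ZnT proteins (Slc30 genes) move it out of the cytosol. LIV-1 members differ from the other ZIPs in a conserved metalloprotease-like motif in a transmembrane helix, and ZIP8 and ZIP14 are a pair that also carry manganese, iron and cadmium. Zinc in the cytosol activates the transcription factor MTF1, which binds metal response elements and switches on the metallothionein genes. In joint cartilage ZIP8 is known as a zinc importer whose raised level drives matrix-degrading enzymes.

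The 8 arrays had medians of 5.04 to 5.11 over all probe sets on the log2 scale and values between 0.85 and 13.80. Differences are compressed near either end of that range, and the number of arrays limits the precision. The cultures carried the label's cell type: the 16 chondrocyte marker genes, among them Col2a1, Acan and Sox9, averaged 11.25 to 11.53 in Ad-Zip8 arrays and 11.92 to 12.01 in Ad-null arrays. Endothelial markers (8 genes) averaged 4.76 to 4.89 in Ad-Zip8 arrays and 4.66 to 4.79 in Ad-null arrays, and macrophage markers (12 genes) averaged 5.18 to 5.30 in Ad-Zip8 arrays and 5.06 to 5.18 in Ad-null arrays. Of the macrophage markers Cd14 and Cd68 were higher in Ad-Zip8 cells (log2 differences 1.39 and 0.83, limma adjusted p = 3.22e-04 and 0.00258), Laptm5 was lower (-0.72, adjusted p = 0.00102) and the other 9 did not pass the threshold used below. Fibroblast markers (6 genes) averaged 7.35 to 7.63 in Ad-Zip8 arrays and 7.23 to 7.69 in Ad-null arrays. Their gene means ran from 5.07 (Pi16) to 10.96 (Col1a1) in Ad-Zip8 cells and from 4.99 to 11.02 in Ad-null cells. Of these 6 genes 1, Pdgfra, was higher in Ad-Zip8 cells (log2 difference 0.86, limma adjusted p = 0.0114). With the replicate block another of them, Dpt, passed as lower (limma adjusted p = 0.0142, against 0.139 without it). Of the chondrocyte markers 13 were lower in Ad-Zip8 cells past the same threshold, beside 5.12% of all genes, and none was higher, beside 5.48%. None was higher at an unadjusted p under 0.05 in limma either. Comp, 1 of the 13, missed the threshold with the replicate block (limma adjusted p = 0.0503). In these bulk samples fewer cells of a type and less RNA per cell cannot be told apart, and the part of these marker shifts in the values of the transporter genes was not tested.

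Promoter sequences are shown for Slc39a8, the gene that the virus supplies, and for Slc39a10, which was lower only without the replicate block. The reason is that metal response elements and STAT and NF-kB motifs are the elements best known upstream of zinc-responsive and inflammation-responsive transporter genes. RefSeq windows on build GRCm38.p6 were matched by symbol for 6 of the 9 genes (Slc39a5, Slc39a7, Slc39a8, Slc39a10, Slc39a12 and Slc39a13). Each sequence is written in the direction of its gene, with the bases of any motif match in capitals. For Slc39a8, the first listed start has the 250 upstream bases at chr3:135825029-135825278 (plus strand), and a later start has a match within the 30 bases at chr3:135825627-135825656. For Slc39a10 the 250 bases upstream of its 2 listed starts lie at chr1:46925777-46926026 and chr1:46853619-46853868 (minus strand). The metallothionein gene Mt1 is given for comparison over the 30 bases just before its start, at chr8:94179059-94179088 (plus strand).
Slc39a8 upstream of the first start: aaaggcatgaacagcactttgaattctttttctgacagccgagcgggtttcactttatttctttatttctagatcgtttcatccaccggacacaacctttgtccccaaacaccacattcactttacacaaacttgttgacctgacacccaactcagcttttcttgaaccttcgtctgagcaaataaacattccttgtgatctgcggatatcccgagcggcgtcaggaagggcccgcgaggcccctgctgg
Slc39a8 upstream of the later start: ttatctctaaaGGGTGCAgggcctgatctc
Slc39a10 upstream of the distal start: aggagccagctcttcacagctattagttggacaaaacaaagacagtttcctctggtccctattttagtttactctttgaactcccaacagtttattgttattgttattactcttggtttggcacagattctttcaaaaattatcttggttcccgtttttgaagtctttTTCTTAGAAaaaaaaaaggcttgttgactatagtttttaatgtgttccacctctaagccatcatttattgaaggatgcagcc
Slc39a10 upstream of the proximal start: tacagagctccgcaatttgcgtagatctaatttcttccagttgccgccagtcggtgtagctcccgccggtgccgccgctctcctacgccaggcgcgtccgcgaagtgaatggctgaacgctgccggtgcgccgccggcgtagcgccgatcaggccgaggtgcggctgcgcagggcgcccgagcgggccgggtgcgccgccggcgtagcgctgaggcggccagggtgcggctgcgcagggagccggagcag
Mt1 upstream of the start: cccgctgTGCACACtggcgctccagggagc

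The metal response element core was searched as TGCACNC or TGCGCNC on both strands, from 250 bases before to 50 bases after each start. It was found in 3 of the 9 LIV-1 windows, those of Slc39a5, Slc39a13 and the later start of Slc39a8, and in 25.7% of the 32851 windows of all genes. In Slc39a8 the match begins 19 bases before that start and is read on the opposite strand, so it appears above as its reverse complement. The windows of Mt1 and Mt2 held 3 and 4 matches, and those of Slc39a10 held none. Upstream of its distal start Slc39a10 had a STAT motif, TTCNNNGAA, which reads alike on both strands and occurs in 8.30% of all windows. The NF-kB motif was searched as GGGRNNYYCC, with R for A or G, Y for C or T and N for any base. It occurred in 8.46% of all windows and in none of the 9 LIV-1 windows. Slc39a4, Slc39a6 and Slc39a14 had no window and were not searched. The proximal Slc39a10 sequence was rich in G and C (71.6%, with 37 CpG pairs), against 35.6% and 1 CpG pair in the distal one. These matches describe letters in the windows and were not tested for binding.

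Slc39a8, the gene that encodes ZIP8, was 30.4-fold higher in Ad-Zip8 cells (95% interval 26.5 to 35.0), and its nearest relative, Slc39a14, was 1.77-fold higher (1.58 to 1.99). Slc39a4 was also higher (1.29-fold) and Slc39a10 was lower (1.53-fold), both close to the threshold and sensitive to single arrays. With the replicate number as a block neither passed (limma adjusted p = 0.0706 for Slc39a4 and 0.0699 for Slc39a10), which left 2 members higher and 0 lower (2 were lower at an unadjusted p under 0.05 in that fit). The other 5 members did not pass. Genes were tested with limma's moderated linear model, Ad-Zip8 minus Ad-null, with Benjamini-Hochberg adjustment over all 22180 genes and a threshold of 0.05. The 4 members past the threshold stand beside a background of 10.6% of all genes, the 3 higher ones beside 5.48% higher and the 1 lower one beside 5.12% lower. Slc39a8, one of the 3, is the gene that the virus supplies. Without it, 2 of 8 members rose and 1 fell, and their median log2 difference was 0.02, against -0.02 over all genes.

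**Figure D1:**
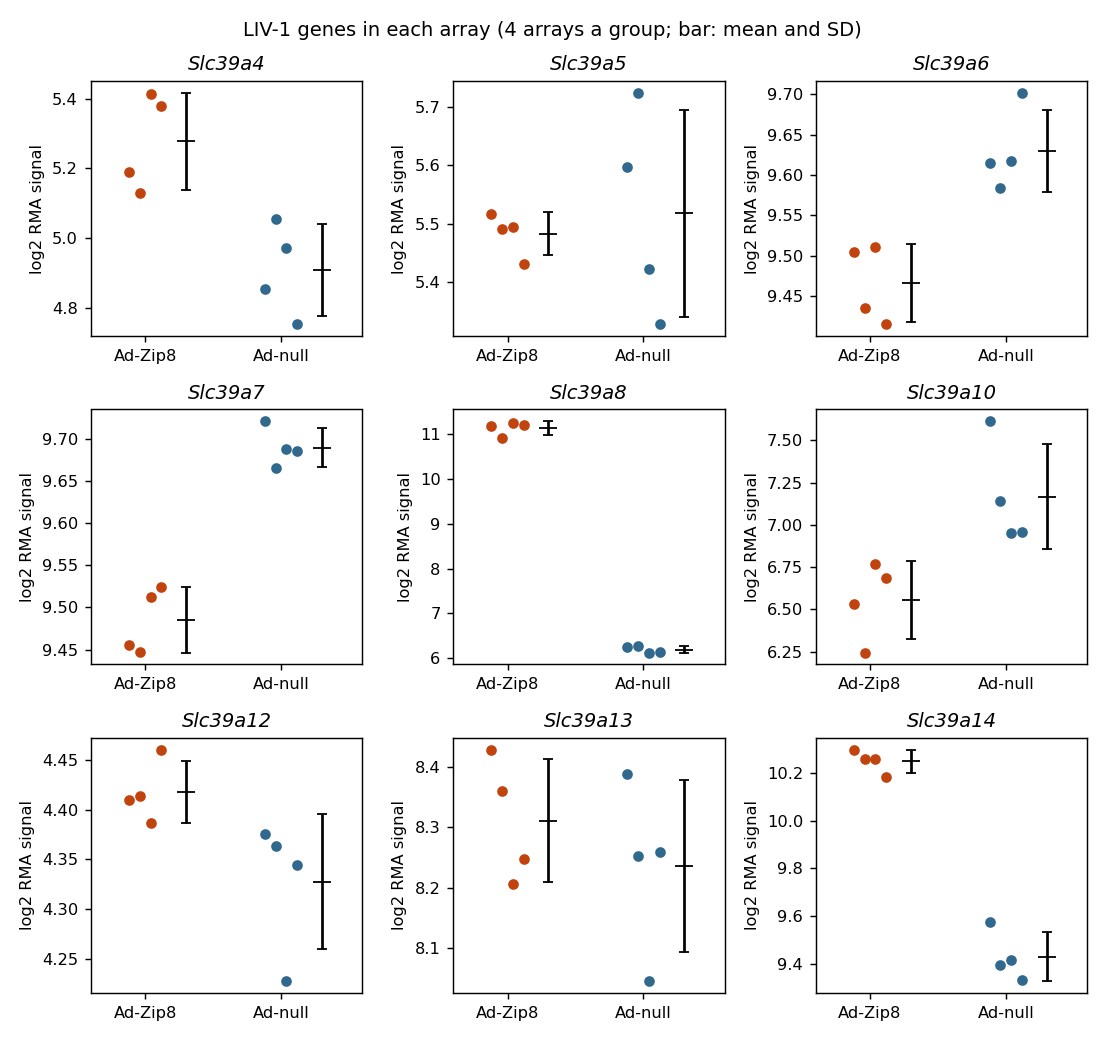
Log2 RMA signal of each LIV-1 gene in every array, with 4 Ad-Zip8 arrays (left) and 4 Ad-null arrays (right) per panel, in replicate order, and the mean and SD beside the points. Each panel has its own axis. The groups stand apart in 7 panels and overlap for Slc39a5 and Slc39a13.

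In the Ad-Zip8 arrays Slc39a8 had log2 values of 11.16, 10.90, 11.24 and 11.20 in replicates 1 to 4, against 6.25, 6.27, 6.12 and 6.15 in the Ad-null arrays. The 4.63 log2 units between the lowest Ad-Zip8 value and the highest Ad-null value exceed the range within either group many times over, and replicate 2 carried the least Slc39a8 signal of the 4 infected with Ad-Zip8. The mean was 11.13 ± 0.15 in Ad-Zip8 cells and 6.20 ± 0.07 in Ad-null cells (SD, n = 4 each), a log2 difference of 4.93 (SE 0.09, limma adjusted p = 3.49e-09). This difference ranked 6 among all increases in the 22180 genes. Transcript from the virus and transcript from the cells' own Slc39a8 gene cannot be told apart with this probe set.

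Slc39a14 encodes ZIP14, the transporter most like ZIP8, which in mouse liver is raised by interleukin 6 and whose loss in mice impairs skeletal growth. It had 10.30, 10.26, 10.26 and 10.18 in the Ad-Zip8 arrays, against 9.57, 9.40, 9.42 and 9.33 in the Ad-null arrays. Every Ad-Zip8 array was at least 0.61 log2 units above every Ad-null array. Means were 10.25 ± 0.05 in Ad-Zip8 cells and 9.43 ± 0.10 in Ad-null cells (SD, n = 4 each), a log2 difference of 0.82 (SE 0.07, limma adjusted p = 1.09e-04). The increase ranked 368 among all genes. It passed the threshold under all 16 alternative settings, with log2 differences of 0.79 to 0.87. Same-numbered arrays differed by 0.73, 0.87, 0.85 and 0.85.

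Slc39a10 and Slc39a6 encode ZIP10 and ZIP6, plasma membrane importers that can form a complex with each other and that are known to act when cells enter mitosis. MTF1 is known to repress Slc39a10 in mouse cells when zinc is high. Slc39a10 had 6.53, 6.24, 6.77 and 6.68 in the Ad-Zip8 arrays, against 7.61, 7.14, 6.95 and 6.96 in the Ad-null arrays. All Ad-Zip8 values lay below all Ad-null values, but the gap between the groups was 0.19 and Ad-null replicate 1 stood well above the other controls. Means were 6.56 ± 0.23 in Ad-Zip8 cells and 7.17 ± 0.31 in Ad-null cells (SD, n = 4 each), a log2 difference of -0.61 (SE 0.16, limma adjusted p = 0.0407). The differences between same-numbered arrays were -1.08, -0.90, -0.19 and -0.28, so they were unequal in size and alike in sign. With the replicate number as a block the adjusted p was 0.0699, and with each array centred on its median it was 0.0561. Leaving out single arrays gave adjusted p-values of 0.0682, 0.0809, 0.0460 and 0.0502 without Ad-null replicates 1 to 4, and 0.0988, 0.0989, 0.0461 and 0.0619 without Ad-Zip8 replicates 1 to 4. Without Ad-null replicate 1 the log2 difference was -0.46.

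Slc39a6 had 9.50, 9.44, 9.51 and 9.41 in the Ad-Zip8 arrays, against 9.61, 9.58, 9.62 and 9.70 in the Ad-null arrays. The groups did not overlap, with a gap of 0.07 between them. Its log2 difference was -0.16 with a 95% interval of -0.31 to -0.02 (limma adjusted p = 0.172). The estimate of -0.61 for Slc39a10 lies outside that interval, but the 95% interval of Slc39a10 (-0.97 to -0.25) overlaps it. A difference between these genes was not tested. Ncam1, a partner of the ZIP6 and ZIP10 complex in mouse cells, had a log2 difference of 0.07 (95% interval -0.10 to 0.25, adjusted p = 0.636).

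The members that release zinc from internal compartments gave small differences. Slc39a7 encodes ZIP7, which moves zinc from the endoplasmic reticulum and Golgi into the cytosol and is phosphorylated by casein kinase CK2 in human cells. It had 9.46, 9.45, 9.51 and 9.52 in the Ad-Zip8 arrays, against 9.72, 9.67, 9.69 and 9.68 in the Ad-null arrays. The groups were tight and separate, with SDs of 0.04 in Ad-Zip8 cells and 0.02 in Ad-null cells. The log2 difference of -0.20 (SE 0.06, 95% interval -0.34 to -0.06) missed the threshold (limma adjusted p = 0.0709). It passed where the variance was allowed to follow signal (adjusted p = 0.0114) and where the dimmer genes were left out (adjusted p = 0.0153). The CK2 subunit genes Csnk2a1 and Csnk2a2 had log2 differences of -0.06 and 0.04 and did not pass.

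Slc39a13 encodes ZIP13, an intracellular zinc transporter whose loss causes a connective tissue disorder in humans and affects bone, tooth and cartilage in mice. It had 8.43, 8.36, 8.21 and 8.25 in the Ad-Zip8 arrays, against 8.39, 8.25, 8.05 and 8.26 in the Ad-null arrays, and the groups overlapped. In each group replicate 1 was highest and replicate 3 was lowest. The log2 difference was 0.07 with a 95% interval of -0.13 to 0.28 (limma adjusted p = 0.705), which spans 0.914 to 1.21 times the Ad-null level.

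The remaining members are known chiefly from epithelia and brain. Slc39a4 encodes ZIP4, the intestinal zinc importer lost in acrodermatitis enteropathica. It had 5.19, 5.13, 5.41 and 5.38 in the Ad-Zip8 arrays, against 4.86, 5.05, 4.97 and 4.75 in the Ad-null arrays. The groups were separated by 0.07, with the lowest Ad-Zip8 value and the highest Ad-null value both in replicate 2. The log2 difference was 0.37 (SE 0.10, limma adjusted p = 0.0368), from means of 5.28 ± 0.14 in Ad-Zip8 cells and 4.91 ± 0.13 in Ad-null cells (SD, n = 4 each). No detection call was used. With the replicate block the adjusted p was 0.0706. Leaving out single arrays gave 0.0937, 0.0376, 0.0596 and 0.101 without Ad-null replicates 1 to 4, and 0.0597, 0.0360, 0.0901 and 0.0977 without Ad-Zip8 replicates 1 to 4.

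Slc39a5 encodes ZIP5, found on the basolateral side of intestinal and pancreatic cells. It had 5.52, 5.49, 5.49 and 5.43 in the Ad-Zip8 arrays, against 5.60, 5.72, 5.42 and 5.33 in the Ad-null arrays. The Ad-Zip8 values all lay inside the Ad-null range, and the log2 difference was -0.03 (95% interval -0.24 to 0.17, limma adjusted p = 0.875). Slc39a12 encodes ZIP12, best known from brain, and had 4.41, 4.41, 4.39 and 4.46 in the Ad-Zip8 arrays, against 4.38, 4.36, 4.23 and 4.34 in the Ad-null arrays. Its groups were separated by only 0.01 and its log2 difference was 0.09 (95% interval -0.06 to 0.24, adjusted p = 0.495).

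In 7 of the 9 members the 4 values of one group lay wholly to one side of the other group's, 4 above and 3 below. Among all genes 17.6% had groups that did not overlap (7.89% above, 9.74% below). Of these 7 members, Slc39a6, Slc39a7 and Slc39a12 did not pass the limma threshold. Slc39a8, another of the 7, is the gene that the virus supplies, and without it 3 of 8 members lay above and 3 below.

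**Figure D2:**
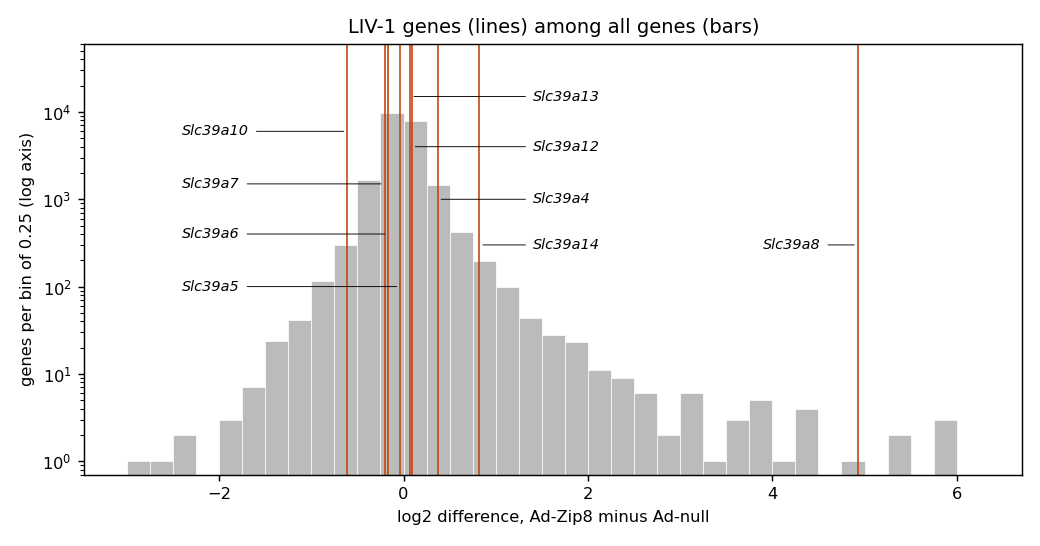
Number of genes (log axis) by log2 difference, Ad-Zip8 minus Ad-null, in bins of 0.25 over the 22180 genes, with a line at each LIV-1 gene. Slc39a8 stands at 4.93, Slc39a14 at 0.82 and Slc39a10 at -0.61, and the other 6 members lie between -0.20 and 0.37.

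Of the 5 ZIPs measured outside the LIV-1 subfamily, 1 rose and none fell by limma, beside 5.48% of all genes higher and 5.12% lower. At an unadjusted p under 0.05 in limma 3 were lower, and the median log2 difference of the 5 was -0.21. The riser was Slc39a1, a ubiquitous plasma membrane zinc importer, which was 1.22-fold higher (log2 difference 0.29, SE 0.08, limma adjusted p = 0.0392), with 9.81, 9.96, 9.81 and 9.80 in the Ad-Zip8 arrays against 9.59, 9.66, 9.44 and 9.53 in the Ad-null arrays. Its groups did not overlap, but when single arrays were omitted it passed only without Ad-null replicate 2 (adjusted p = 0.0450), with adjusted p-values of 0.0657 to 0.107 in the others. The other 4 did not pass. Slc39a3, Slc39a9 and Slc39a11 had log2 differences of -0.26, -0.21 and -0.21 (limma adjusted p = 0.0555, 0.0977 and 0.130), and Slc39a2 had 0.12. The first 3 had Ad-Zip8 values below every Ad-null value, as had 9.74% of all genes.

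Of 8 listed and measured ZnT exporter genes none rose and 1 fell by limma, beside 5.48% of all genes higher and 5.12% lower. At an unadjusted p under 0.05 in limma 0 were higher and 3 lower. The median log2 difference of the 8 genes was -0.04. Slc30a1 was not on the list and Slc30a10 had no probe set with a single symbol, so these counts do not cover those exporters. Slc30a5, whose product loads zinc into the secretory pathway, was 1.19-fold lower (log2 difference -0.25, SE 0.07, limma adjusted p = 0.0474), and its adjusted p was 0.0701 with the replicate block. It passed in none of the 8 fits that left out 1 array (limma adjusted p = 0.0649 to 0.125). Slc30a6 and Slc30a7, which serve the same compartment, had log2 differences of -0.19 and -0.26 (adjusted p = 0.176 and 0.141).

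Metallothioneins, the small zinc-binding proteins that MTF1 induces, rose in the same arrays. Mt1 had 11.64, 11.56, 11.47 and 11.55 in the Ad-Zip8 arrays, against 9.88, 10.45, 10.31 and 10.64 in the Ad-null arrays, and Mt2 had 12.78, 12.67, 12.74 and 12.70 in the Ad-Zip8 arrays, against 11.27, 11.77, 11.72 and 12.16 in the Ad-null arrays. Both genes varied little with Ad-Zip8 and more with Ad-null, where replicate 1 was lowest for each. The log2 differences were 1.24 for Mt1 (SE 0.14, limma adjusted p = 4.45e-04) and 0.99 for Mt2 (SE 0.16, adjusted p = 0.00262). Mt3 and Mt4, known chiefly from brain and squamous epithelium, did not pass, and neither did Mtf1 (log2 difference 0.07, 95% interval -0.13 to 0.27).

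**Figure D3:**
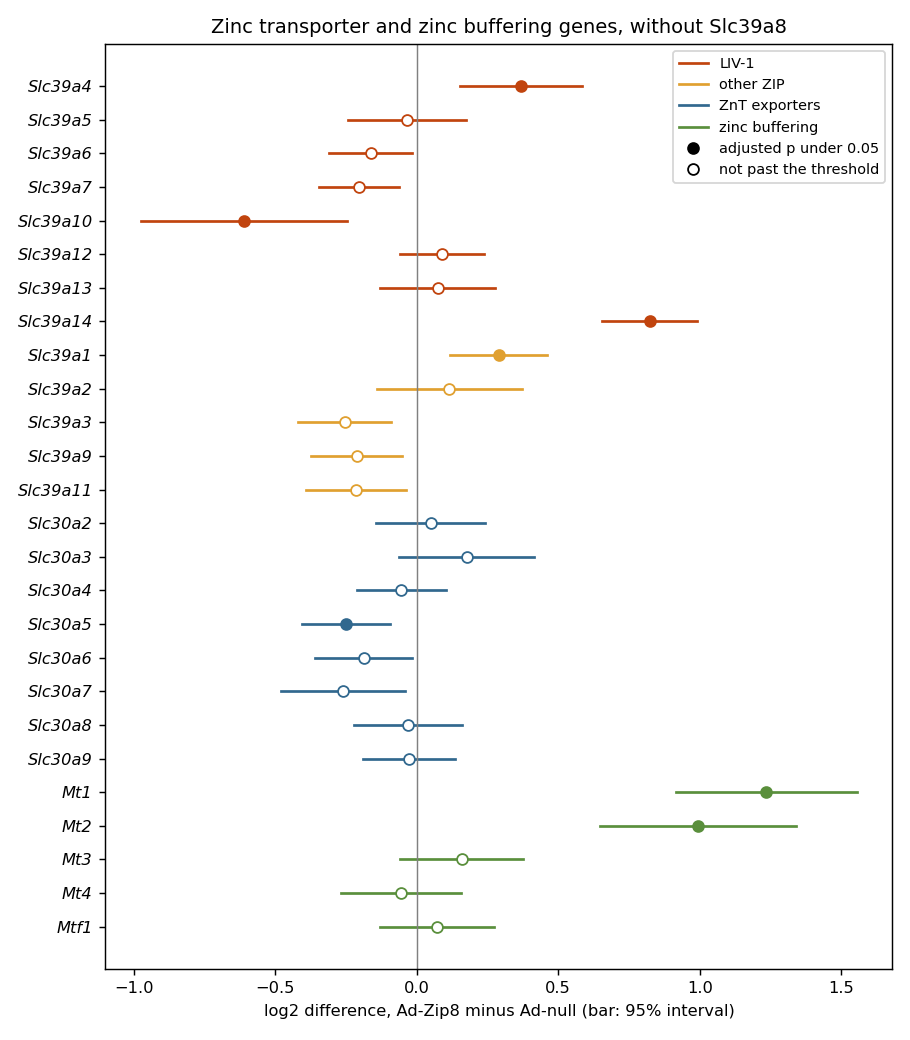
Log2 difference, Ad-Zip8 minus Ad-null, with its 95% interval from limma, for the zinc transporter and zinc buffering genes other than Slc39a8 (4.93). Filled points passed an adjusted p of 0.05. Slc39a14, Mt1 and Mt2 lie furthest to the right and Slc39a10 furthest to the left.

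A list of 9 measured genes covered signals known to act on LIV-1 genes in other cells, and feedback inhibitors of those signals. Of these genes 7 rose and none fell by limma (also none at an unadjusted p under 0.05), beside 5.48% of all genes higher. The list was chosen with earlier results of these data known, so the count is not a test of these signals. Nfkb1 was also listed but had no probe set with a single symbol. Il6, the gene of the cytokine that raises Slc39a14 in mouse liver, had 6.59, 5.43, 5.65 and 5.63 in the Ad-Zip8 arrays, against 4.00, 3.83, 4.28 and 3.52 in the Ad-null arrays. The groups were far apart, with Ad-Zip8 replicate 1 the highest, and the log2 difference was 1.92 (SE 0.25, limma adjusted p = 8.00e-04). Socs3, a feedback inhibitor that STAT3 induces, had a log2 difference of 1.38 and was higher (SE 0.09, adjusted p = 1.70e-05). That value is from the brighter of its 2 probe sets, and their mean gave a smaller log2 difference of 1.01 (limma adjusted p = 1.07e-04). Stat3 itself rose 1.23-fold (log2 difference 0.30, adjusted p = 0.0308), a call that held in 2 of the 8 fits with 1 array left out, those without Ad-null replicate 1 (adjusted p = 0.0324) and Ad-Zip8 replicate 3 (0.0461), and reached 0.0895 in the others. Among NF-kB genes, the inhibitor gene Nfkbia rose 2.25-fold and the subunit gene Nfkb2 rose with a log2 difference of 0.58 (adjusted p = 8.00e-04), whereas Rela had a log2 difference of 0.05 (adjusted p = 0.803). Epas1, which encodes the hypoxia-inducible factor HIF-2 alpha, rose 3.86-fold. Tnf rose 1.30-fold (adjusted p = 0.0356) and passed without Ad-null replicate 4 (0.0230) but in none of the other 7 fits with 1 array left out (adjusted p = 0.0503 to 0.0907). Il1b had a log2 difference of 0.04 (adjusted p = 0.919). Their part in the values of Slc39a14 and Slc39a10 was not tested.

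Likeness of pattern was measured as the root mean square difference between 2 genes' log2 values over the 8 arrays, after each gene was centred on its own mean, so that small values mean like changes of like size. The genes nearest to Slc39a8 were Hp (0.29), Lbp (0.33), Cxcl5 (0.35), Mmp13 (0.47) and Steap4 (0.48). They encode haptoglobin, the lipopolysaccharide-binding protein, a neutrophil chemokine, collagenase 3 and a metalloreductase. Their log2 differences were 5.39, 4.45, 5.43, 4.41 and 4.43, beside 4.93 for Slc39a8, which the virus supplies. Genes with a group difference of like size come out nearest by this measure, and shared regulation was not tested. Nearest to Slc39a14 were Smc2 (0.04), Aurkb (0.04), Gja1 (0.05), Racgap1 (0.06) and Cd47 (0.07), of which Smc2, Aurkb and Racgap1 serve chromosome condensation, mitosis and cytokinesis and Gja1 encodes the gap junction protein connexin 43. Nearest to Slc39a10 were Mcam (0.11), Sp7 (0.13), Zbed5 (0.15), Dync1i1 (0.15) and Phtf2 (0.15). Mcam encodes a cell adhesion molecule and Sp7 the osteoblast transcription factor osterix. Both were lower in Ad-Zip8 cells (log2 differences -0.70 and -0.79, limma adjusted p = 0.00288 and 0.00303), while the other 3 near genes did not pass. Osteoblast markers did not move together: Ibsp was higher (log2 difference 0.58, limma adjusted p = 0.0100), and Bglap, Dmp1 and Phex did not pass.

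**Figure D4:**
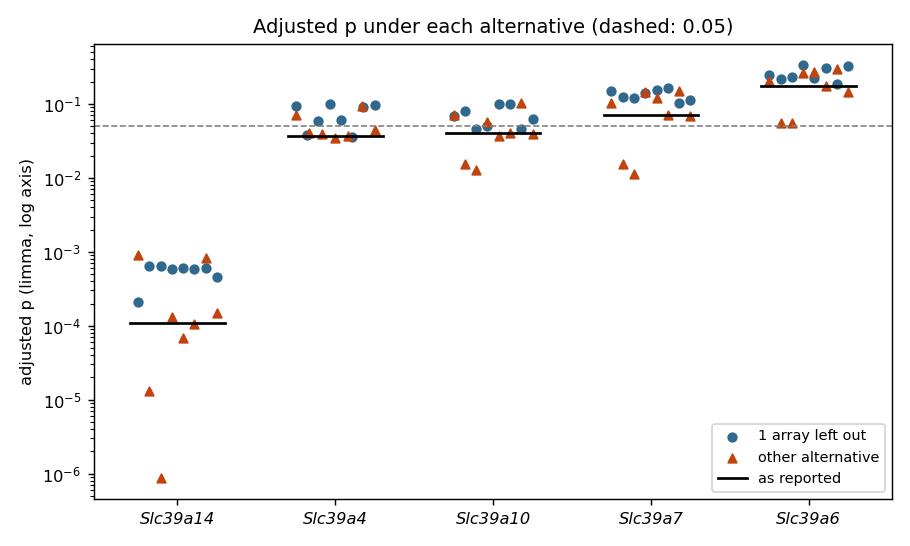
Limma adjusted p (log axis) of 5 LIV-1 genes under each alternative setting: circles are fits without 1 array, triangles the other alternatives, and the bar is the value as reported. All points of Slc39a14 lie below the dashed threshold of 0.05, those of Slc39a4, Slc39a10 and Slc39a7 lie on both sides of it, and those of Slc39a6 lie above it.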

How the data were processed

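The authors deposited 1 log2 value per probe set and array, computed by RMA according to the submitters' processing notes. RMA corrects background, equalises the distributions of the arrays and summarises probes. Its version, the build and any filter were not stated there. The platform annotation gave 1 symbol to 23521 of the 41345 probe sets, several to 1814, and did not list 16010. Where probe sets shared a gene, the brightest by its mean over all 8 arrays stood for it, giving 22180 genes.

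The groups were compared in R 4.3.3 by limma 3.58.1 (functions lmFit and eBayes, a two-sided test with no covariates and no filter on dim genes), which was tested on simulated data. Fold changes are differences of group means, and standard errors and 95% intervals use limma's moderated variance. The members, gene lists and tests were chosen with earlier results of these data known. All members were named, other listed genes by their calls or by a preset list, and like genes as the 5 nearest, without predicted genes and small RNAs. Alternatives were a replicate block, a dim gene filter, a variance trend, rescaling, other probe set rules and leaving out each array.

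Both groups carry replicate numbers 1 to 4. Only arrays of different groups were compared for this. Across the groups, deviations from group means correlated at 0.11 to 0.37 between same-numbered arrays and at -0.27 to 0.16 between differently numbered ones. For 7 of the 8 arrays the best match in the other group was the array of the same number. The numbers were therefore taken as possible pairs, an inference from the data that the labels do not state. The main fit did not pair the arrays. Pairing entered only the replicate block and the differences between same-numbered arrays. Arrays correlated at 0.991 to 0.993 within groups, and none duplicated another.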

Additional observations from a re-analysis of the deposited data

Results flagged for a closer look

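Among the 42 groups of 4 values checked for a value set far apart from the rest of its group, 2 were found, and chance alone marks about 5% of groups. Slc39a1 in Ad-Zip8 replicate 2 was 9.96, against 9.81 for the next array of its group. Nfkb2 in Ad-null replicate 1 was 7.60, below the next lowest of its group at 7.66. None of the 9 LIV-1 genes had such a value.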

How the results depend on the processing

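Slc39a8 and Slc39a14 kept their direction and passed under all 16 alternatives. The count of LIV-1 genes that fell was 1 as reported, beside 5.12% of all genes tested lower. It was 0 with the replicate block (beside 4.77%), with arrays centred on their medians (4.05%) and over all probe sets (1.86% of probe sets). It was 2 with the dim gene filter (beside 14.7%) and with the variance trend (7.31%). Under these settings 2 to 3 members were lower at an unadjusted p under 0.05 in limma. Leaving out 1 array gave 0 to 1 lower (beside 3.19% to 4.16%). The count that rose was 3 as reported, beside 5.48% of all genes tested higher. It was 2 with the replicate block (beside 5.76%), the dim gene filter (11.7%) and all probe sets (2.4% of probe sets). The dim gene filter removed Slc39a4, Slc39a5 and Slc39a12. Leaving out 1 array gave 2 to 3 higher (beside 4.17% to 5.05%). Over all genes, leaving out 1 array gave 708 to 923 lower, against 1136, fewest without Ad-Zip8 replicate 1 (708) and Ad-null replicate 1 (721). The log2 difference of Slc39a5, -0.03 and never past the threshold, was 0.034 without Ad-null replicate 2 and otherwise negative, down to -0.10. Apart from Slc39a4, Slc39a10 and Slc30a5, the replicate block changed no call among the 54 genes of the zinc lists and the genes of like pattern. Centring on the medians of the named genes, chosen after seeing the data, kept the LIV-1 counts at 3 and 1 (beside 5.05% and 5.55%). It took Slc39a1 to a limma adjusted p of 0.0618 and Stat3 to 0.0509. Where fewer arrays were used that is the construction of the setting; otherwise the cause was not tested. Low signals, where differences are compressed, limit what can be said of Slc39a4, Slc39a5 and Slc39a12. The same limit holds for other dim genes named above, among them Il6 (mean 3.91 in Ad-null cells) and Tnf (5.05), which the dim gene filter also removed.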
